A study of Drosophila melanogaster with 17 samples.

Results

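Transcripts of the mitochondrial ribosomal proteins were followed in laser-captured neurons of the mushroom body, a learning centre of the fly brain, as Drosophila melanogaster larvae became pupae. The genes were taken by symbol, as all genes whose current symbol is mRpL or mRpS followed by a number. The gene table lists 73 such genes, and 64 of them had a probe set of their own on the array, of 10844 genes in all that did. The other 9 were mRpL27, mRpL34, mRpL37, mRpL53, mRpS5, mRpS10, mRpS14, mRpS21 and mRpS23, which are not reported. mRpL11 and mRpL12 each had 2 probe sets, and the one with the higher mean over the 17 arrays was used for each.

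Mitochondria carry their own ribosomes, which translate the few proteins encoded in mitochondrial DNA. Those proteins are core subunits of the respiratory chain, the membrane complexes that carry out oxidative phosphorylation, and they are assembled with many subunits made in the cytosol. Every protein of the fly mitochondrial ribosome is itself encoded in the nucleus, made by cytosolic ribosomes and imported. The small subunit holds the decoding site and binds the messenger RNA, and the large subunit holds the peptidyl transferase centre and the tunnel through which the new chain leaves. Many of its proteins have counterparts in bacteria, and others exist in mitochondria alone.

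The neurons came from animals of the genotype yw;UAS-mCD8::GFP/+;;OK107-GAL4, in which a membrane-bound GFP marks the cells where OK107-GAL4 is active. Cell bodies were laser-captured from frozen sections of larvae of the third instar at -18 h relative to puparium formation (7 arrays), of newly formed white prepupae at 0 h (7 arrays) and of pupae at 5 h (3 arrays). All 3 groups carry the same transgenes. Each array held amplified RNA from many captures combined. The replicates are named as biological, the number of animals behind each is not stated, and p-values measure the spread between the combined samples. The driver is active in mushroom body neurons as a class and does not separate their subtypes.

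Values are log2 RMA signals, in which a difference of 1 is a 2-fold difference. Array medians lay between 4.32 and 4.43 log2. Of 6 measured mushroom body markers, eyeless (ey) lay between 8.45 and 9.23 log2 in larvae, between 8.42 and 9.11 in white prepupae and between 8.69 and 8.81 in pupae, while prt, a vesicular transporter of these neurons, averaged 8.54, 5.96 and 4.23 log2 at -18 h, 0 h and 5 h and toy, a partner of ey, 8.08, 8.33 and 9.15. prt was called lower in all 3 comparisons (-2.59 at 0 h and -4.31 at 5 h against -18 h), toy was called higher at 5 h (1.08 against -18 h), and the other 4 markers passed in none. Of 4 general neuron markers, elav and para were dim, with means of 4.50 and 2.86 log2 at -18 h, and nSyb and brp averaged 4.77 and 5.91. brp was called lower at 0 h against -18 h (-0.34, limma adjusted p = 0.032), the only call among the 4 in any comparison. Transcripts of neighbouring tissues reached some larval arrays unevenly. The mean of 5 salivary gland markers ran from 3.88 to 11.5 log2 among larval arrays, against 3.66 to 3.89 among 0 h arrays and 3.65 to 3.71 among 5 h arrays. The mean of 3 muscle markers lay between 3.70 and 7.43 log2 in larvae, between 3.61 and 3.78 in white prepupae and between 3.79 and 4.004 in pupae. Fat body markers were present in every group, with means of 6.14 to 8.89, 5.25 to 7.30 and 6.80 to 8.62 log2 in the same order of times. Of the 4, Lsp2 and Obp99b were called lower at 0 h (-1.51 and -2.01), and Fbp1 was called higher at 5 h against -18 h (2.08). Bacterial control transcripts added at hybridisation read above 9.10 log2 on larval arrays 1, 2, 3 and 7 and 0 h arrays 5, 6 and 7, the higher set, and below it on the rest, the lower set.

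Most mitochondrial ribosomal protein transcripts were lower at puparium formation than in the larva. At 0 h against -18 h, 38 of the 64 genes fell, 4 rose and 22 did not pass the test (limma, Benjamini-Hochberg adjusted p under 0.05 over all 13966 probe sets). Over all probe sets, 11.9% were called lower and 13.6% higher in this comparison. The median change of the 64 genes was -0.39 log2, against -0.02 over all probe sets, and 55 of the 64 estimates were negative. Among the genes that fell the changes ran from -1.60 to -0.27, and 9 genes fell by more than 1 log2 unit. For 30 genes every 0 h array lay below every larval array, and for 2 genes every 0 h array lay above, where 5.25% and 6.06% of all probe sets showed such gaps. In RNA of captured tissue, fewer cells of a type and less RNA per cell cannot be told apart.

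The mean over the 64 genes was 6.33 ± 0.0652 log2 at -18 h (SD, n = 7), 5.91 ± 0.0538 at 0 h (SD, n = 7) and 6.08 ± 0.0523 at 5 h (SD, n = 3). Single larval arrays lay between 6.24 and 6.40, the 0 h arrays between 5.84 and 5.97 and the 5 h arrays between 6.04 and 6.13. The 3 groups therefore did not overlap in this mean, with the 5 h arrays between the other two. Over the 3 times together, 45 of the 64 genes differed by limma's F test, where 27.1% of all probe sets did.

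Transcripts of both subunits fell, by unequal amounts. Of the 19 small subunit genes, 15 fell and 2 rose at 0 h against -18 h, with a median change of -0.71 log2. Of the 45 large subunit genes, 23 fell and 2 rose, with a median change of -0.29. mRpS30 and mRpS18A are counted with the large subunit, where their mammalian counterparts sit. Averaged per array, the small subunit genes read 6.43 ± 0.0677 log2 at -18 h (SD, n = 7), 5.85 ± 0.0599 at 0 h (SD, n = 7) and 6.03 ± 0.0851 at 5 h (SD, n = 3). The large subunit genes read 6.28 ± 0.0671, 5.94 ± 0.0551 and 6.09 ± 0.0386 log2 at the same times. The difference between the subunits was not tested.

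**Figure D1:**
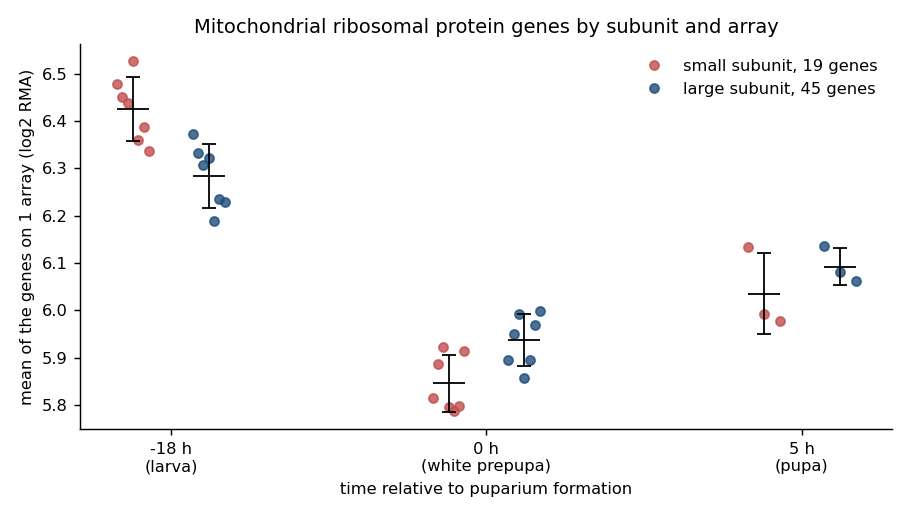
Mean log2 RMA signal of the 19 small subunit and the 45 large subunit genes on each array (points), by time relative to puparium formation, with the group mean (dash) and SD (bar). For both subunits all 0 h arrays lie below all larval arrays, and the small subunit mean drops further, to 5.85 at 0 h against 6.43 log2 at -18 h.

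In the small subunit, the 10 genes whose proteins have a bacterial counterpart all fell at 0 h, with a median change of -0.84 log2 and a range from -1.06 to -0.43. For 9 of these 10, the 0 h and larval arrays did not overlap. The 9 small subunit genes without a bacterial counterpart were mixed, with 5 lower, 2 higher and a median change of -0.40. mRpS18B is counted among these 9, and mRpS18A among the large subunit genes without a counterpart, although both belong to the bacterial S18 family. That all 10 fell depends on this choice, since mRpS18B did not pass the test. In the large subunit, 12 of 27 genes with a counterpart and 11 of 18 without one fell, with medians of -0.24 and -0.37. These differences between genes with and without counterparts were not tested in either subunit.

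The deepest fall of all 64 genes belonged to mRpS33, which encodes a small subunit protein found in mitochondrial ribosomes and not in bacterial ones. Its larval arrays had a lowest value of 6.30, a median of 6.54 and a highest of 6.67 log2, its 0 h arrays 4.59, 4.86 and 5.28, and its 5 h arrays read 5.63, 5.54 and 5.84. The 3 groups were fully apart, with 0 h lowest and 5 h in between. The change at 0 h against -18 h was -1.60 ± 0.10 log2 (SE; limma adjusted p = 1.75e-10), a level 3.03-fold lower.

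mRpS28 and mRpS24 fell by similar amounts. The human counterparts of these proteins take the places of bacterial S1 and S3, which contact the messenger RNA. mRpS28 had a median of 6.54 log2 in larvae, 5.50 at 0 h and 5.93 at 5 h. mRpS24 had 6.85, 6.98 and 7.15 log2 as its lowest, median and highest larval values, 5.54, 5.92 and 6.19 at 0 h, and 6.50, 6.18 and 6.12 in the 5 h arrays. In both genes the larval arrays lay above all others. The changes at 0 h were -1.06 ± 0.11 for mRpS28 and -1.05 ± 0.09 log2 for mRpS24 (SE; limma adjusted p = 1.39e-07 and 1.75e-08).

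Transcripts of proteins of the platform and of the head of the small subunit were among those that fell. In bacteria, S11, S6 and S18 form part of the platform, next to the exit site of transfer RNA, and S7 and S9 belong to the head. mRpS11 changed by -1.04 ± 0.09 log2, mRpS6 by -0.79 ± 0.09 and mRpS18C by -0.86 ± 0.09 (SE). Values of mRpS7 were tight, with 7.74, 7.87 and 8.04 log2 as the lowest, median and highest in larvae, 6.89, 7.06 and 7.28 at 0 h, and 7.36, 7.32 and 7.24 in the 5 h arrays. Its 0 h arrays lay below every larval array, and the change was -0.81 ± 0.07 log2 (SE; limma adjusted p = 2.02e-08). mRpS9 changed by -0.71 ± 0.08. mRpS17, whose bacterial counterpart binds ribosomal RNA early in assembly, changed by -0.87 ± 0.10, and mRpS2, on the solvent side of the small subunit, by -0.43 ± 0.09 (SE).

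The fly has several genes of the bacterial S18 family. mRpS18C, the small subunit form, and mRpS18A, the form placed in the large subunit, changed by -0.86 and -1.13 log2 at 0 h and both passed the test. mRpS18B, a small subunit form, had 5.68, 5.92 and 6.15 log2 as its lowest, median and highest larval values, 5.58, 5.70 and 5.93 at 0 h, and 5.83, 5.87 and 5.76 in the 5 h arrays. Its groups overlapped, and its change of -0.18 ± 0.08 log2 did not pass (SE; limma adjusted p = 0.107). The S18 family, like the groups by position in the ribosome above and below, was chosen after the values were seen.

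Transcripts of several other small subunit proteins specific to mitochondria also fell. mRpS34 changed by -0.79 ± 0.08 log2, mRpS22 by -0.47 ± 0.10 and mRpS35 by -0.40 ± 0.07 (SE), and mRpS26, at -0.21 ± 0.09, did not pass the test. mRpS29 encodes a GTP-binding protein whose human counterpart is also known as death-associated protein 3. It had 6.63, 6.87 and 6.95 log2 as the lowest, median and highest larval values, 6.23, 6.34 and 6.49 at 0 h, and 6.36, 5.96 and 6.27 in the 5 h arrays. Every 0 h and 5 h array of mRpS29 lay below every larval array, with a change of -0.45 ± 0.08 log2 at 0 h and -0.61 ± 0.10 at 5 h against -18 h (SE; limma adjusted p = 9.24e-05 and 8.98e-05).

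Among large subunit genes, mRpL55 fell furthest at 0 h. It encodes a protein of mitochondrial ribosomes without a bacterial counterpart. The lowest, median and highest values were 7.74, 7.91 and 8.41 log2 in larvae and 6.35, 6.59 and 6.83 at 0 h, and the 5 h arrays read 6.77, 6.66 and 6.82. Every larval array lay above every later array, and the 0 h and 5 h arrays overlapped. The change at 0 h was -1.40 ± 0.09 log2 (SE; limma adjusted p = 2.84e-10), a level 2.65-fold lower, and at 5 h against -18 h it was -1.24 ± 0.12 (SE; limma adjusted p = 1.66e-07).

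mRpL33, the counterpart of bacterial L33 at the exit site of transfer RNA, fell and was partly back by 5 h. It had 6.84, 7.34 and 7.78 log2 as its lowest, median and highest larval values, 5.84, 6.06 and 6.54 at 0 h, and 6.73, 6.73 and 7.01 in the 5 h arrays. All 5 h arrays lay above all 0 h arrays and within or below the larval range. The changes were -1.18 ± 0.12 log2 at 0 h against -18 h (SE; limma adjusted p = 8.81e-08), 0.71 ± 0.15 at 5 h against 0 h (adjusted p = 0.00812) and -0.47 ± 0.15 at 5 h against -18 h (adjusted p = 0.0312). Without 5 h array 3 the rise after 0 h was 0.61 with an adjusted p of 0.0845 by limma.

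mRpS18A, mRpL17 and mRpL9 completed the large falls. mRpS18A had 8.18, 8.38 and 8.51 log2 as lowest, median and highest in larvae, 7.02, 7.29 and 7.43 at 0 h, and 7.79, 7.62 and 7.39 in the 5 h arrays, with larvae above the rest. mRpL17, whose bacterial counterpart lies near the mouth of the exit tunnel, had 5.94, 6.17 and 6.57 log2 in larvae, 4.81, 5.14 and 5.30 at 0 h, and 5.09, 5.32 and 5.40 in the 5 h arrays. mRpL9, the counterpart of a bacterial protein that reaches out from the base of the L1 stalk, had 6.12, 6.36 and 6.71 log2 in larvae, 4.85, 5.28 and 5.68 at 0 h, and 5.72, 5.74 and 5.80 in the 5 h arrays. In all 3 genes no 0 h array reached the lowest larval value. The changes at 0 h were -1.13 ± 0.08 for mRpS18A, -1.11 ± 0.10 for mRpL17 and -1.11 ± 0.12 log2 for mRpL9 (SE; limma adjusted p = 1.16e-09, 3.23e-08 and 2.2e-07).

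**Figure D2:**
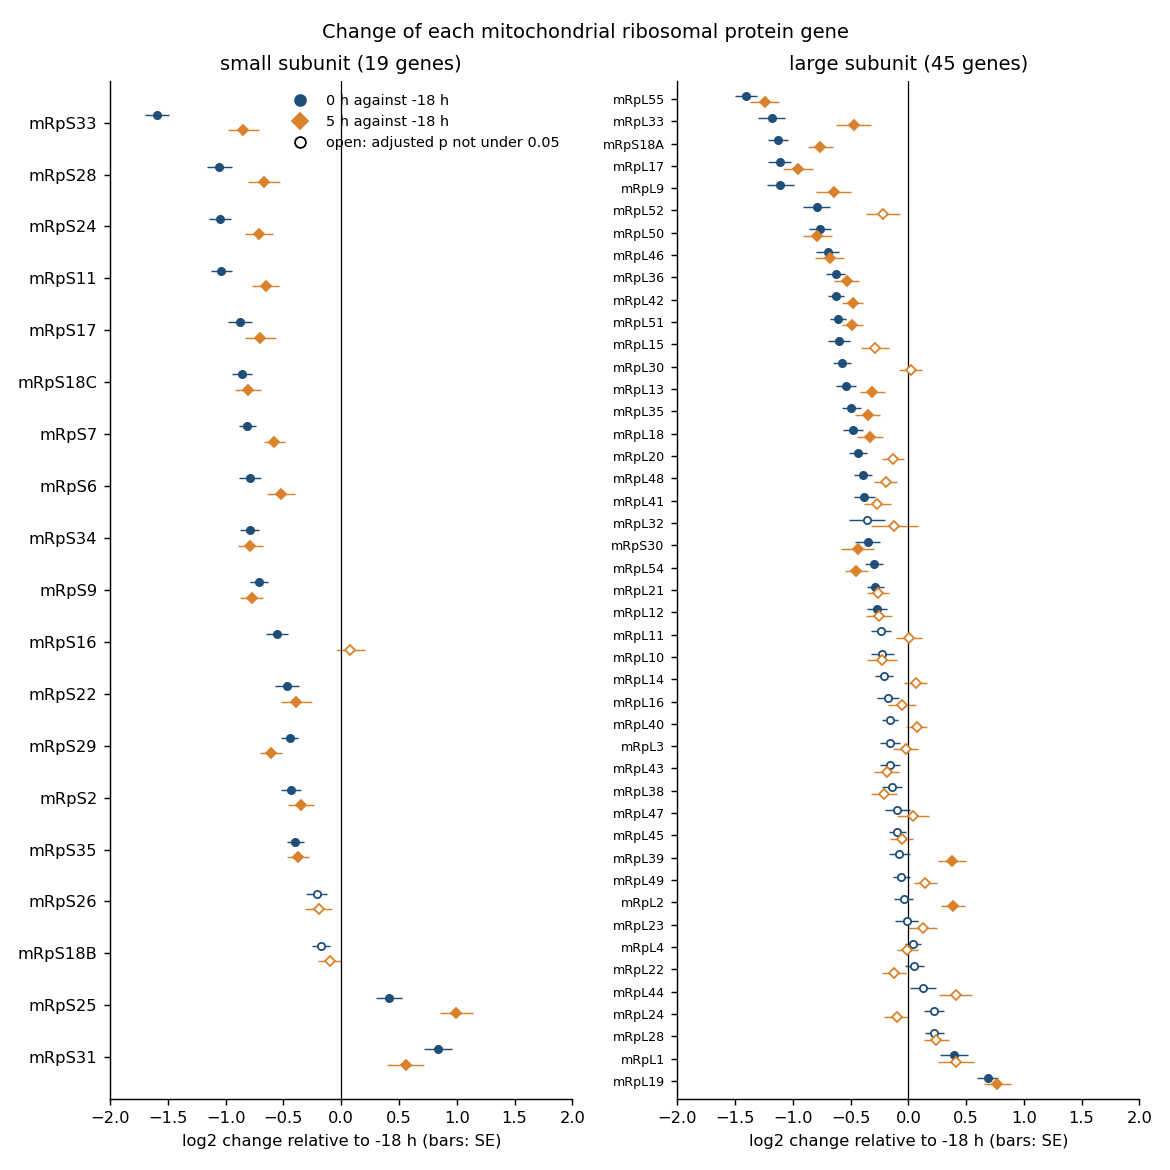
Log2 change of each of the 64 genes at 0 h (circles) and at 5 h (diamonds), both against -18 h, with the standard error from limma as bars and filled symbols for adjusted p under 0.05. In the small subunit 15 of 19 circles are filled on the left of 0, and in the large subunit 23 of 45, from mRpS33 at -1.60 and mRpL55 at -1.40 to mRpS31 at 0.84 on the right.

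A band of large subunit genes lay between -0.79 and -0.27 log2 and passed the test. It held mRpL52 (-0.79), mRpL50 (-0.76), mRpL46 (-0.70), mRpL36 and mRpL42 (both -0.63), mRpL51 (-0.61), mRpL15 (-0.60), mRpL30 (-0.58) and mRpL13 (-0.54). mRpL35, mRpL18, mRpL20, mRpL48, mRpL41, mRpS30, mRpL54, mRpL21 and mRpL12 followed with smaller falls. mRpL36 had the brightest probe set of the 64, with 8.02, 8.31 and 8.50 log2 as the lowest, median and highest larval values, 7.46, 7.63 and 7.91 at 0 h, and 7.92, 7.67 and 7.63 in the 5 h arrays. No later array reached the larval range, and mRpL36 changed by -0.63 ± 0.08 at 0 h (SE; limma adjusted p = 4.08e-06). mRpS30, whose human counterpart is also called programmed cell death protein 9, changed by -0.35 ± 0.11 with overlapping groups (SE; limma adjusted p = 0.0218), and the call was lost in 6 of 26 alternatives, with adjusted p up to 0.205. Among them were those without larval array 1, 0 h array 4 or 0 h array 5, with adjusted p of 0.0515, 0.0503 and 0.0526 by limma.

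The proteins lining and surrounding the peptide exit tunnel in bacteria are L4, L17, L22, L23, L24, L29 and L32. Transcripts of their fly counterparts mRpL4, mRpL17, mRpL22, mRpL23, mRpL24, mRpL47 and mRpL32 were all measured. Of these 7, mRpL17 passed the test at 0 h and the other 6 did not. That is 14.3% called lower, near the 11.9% of all probe sets, in a group chosen after the values were seen. mRpL4 had 6.01, 6.22 and 6.43 log2 as its lowest, median and highest larval values, 6.18, 6.28 and 6.38 at 0 h, and 6.19, 6.38 and 6.12 in the 5 h arrays. mRpL23 had 6.98, 7.15 and 7.52 log2 in larvae, 6.87, 7.23 and 7.43 at 0 h, and 7.37, 7.28 and 7.26 in the 5 h arrays. The groups overlapped in both genes, and the changes were 0.04 ± 0.07 for mRpL4 and -0.01 ± 0.10 log2 for mRpL23 (SE; limma adjusted p = 0.749 and 0.946). mRpL22 changed by 0.05 ± 0.08, mRpL47 by -0.10 ± 0.11 and mRpL24 by 0.22 ± 0.08 (SE). mRpL32 read 4.43 to 4.97 log2 at 0 h, against 4.01 in larval array 1 and 4.88 to 5.45 in the other larval arrays. Its change of -0.36 ± 0.16 did not pass (SE; limma adjusted p = 0.111), and without larval array 1 it was -0.52 and passed (adjusted p = 0.000483).

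The stalk of the large subunit recruits translation factors, through several copies of L12 held by L10, with L11 at the base. mRpL12 had 6.32, 6.66 and 6.93 log2 as its lowest, median and highest larval values, 6.17, 6.41 and 6.51 at 0 h, and 6.50, 6.41 and 6.28 in the 5 h arrays. mRpL10 had 5.92, 6.09 and 6.66 log2 in larvae, 5.67, 5.97 and 6.04 at 0 h, and 5.96, 5.73 and 6.04 in the 5 h arrays. The groups overlapped in both. The change at 0 h was -0.27 ± 0.09 log2 for mRpL12, which passed (SE; limma adjusted p = 0.0215), and -0.23 ± 0.10 for mRpL10 and -0.24 ± 0.09 for mRpL11, which did not (adjusted p = 0.106 and 0.0525). The call of mRpL12 was lost without 0 h array 1, with adjusted p = 0.0549 by limma, within the higher set of arrays by bacterial control signal (-0.15, adjusted p = 0.525), and with larval arrays 1 and 4 as the only larval ones (-0.24, adjusted p = 0.296). With quantile normalization mRpL10 passed (-0.28, limma adjusted p = 0.0454). The second probe set of mRpL12 changed by -0.21 ± 0.08 (adjusted p = 0.0588) and that of mRpL11 by -0.13 ± 0.07 (adjusted p = 0.235), so the 2 probe sets of each gene had the same sign at 0 h. At 5 h against -18 h the second probe set of mRpL12 was called lower (-0.34, limma adjusted p = 0.0249) and the one used was not (-0.25, adjusted p = 0.115). At 5 h against 0 h they read -0.13 and 0.02, and neither passed. The second probe set of mRpL11 passed in no comparison.

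Rises at 0 h were few. mRpS31, a small subunit protein of mitochondria, had 5.87, 6.26 and 6.58 log2 as the lowest, median and highest larval values, 6.65, 7.13 and 7.52 at 0 h, and 6.97, 6.78 and 6.79 in the 5 h arrays. mRpL19, the counterpart of a bacterial protein at the interface of the subunits, had 5.90, 6.01 and 6.44 log2 in larvae, 6.58, 6.65 and 7.01 at 0 h, and 6.83, 6.93 and 6.69 in the 5 h arrays. For both genes every later array lay above every larval one. The changes were 0.84 ± 0.12 log2 for mRpS31 and 0.69 ± 0.09 for mRpL19 at 0 h (SE; limma adjusted p = 1.91e-05 and 4.51e-06), or 1.79-fold and 1.61-fold higher.

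mRpS25 and mRpL1 also rose at 0 h, with overlapping groups. mRpL1, the counterpart of the mobile protein that guides spent transfer RNA out of the ribosome, had 5.29, 5.59 and 5.97 log2 as lowest, median and highest in larvae, 5.68, 6.10 and 6.25 at 0 h, and 6.31, 5.97 and 5.75 in the 5 h arrays. Its change was 0.40 ± 0.12 log2 (SE; limma adjusted p = 0.0186). mRpS25, a small subunit protein of mitochondria without a bacterial counterpart, had 4.86, 5.00 and 5.42 log2 in larvae, 5.34, 5.46 and 5.81 at 0 h, and 6.48, 6.06 and 5.72 in the 5 h arrays. The change at 0 h was 0.42 ± 0.11 (SE; limma adjusted p = 0.00751). Larval arrays 1 and 4 had the lowest fat body means of the larval arrays (6.16 and 6.14 log2) and, after array 6, the highest salivary gland means (7.20 and 7.14). When these 2 stood alone for the larva, the changes were 0.14 for mRpS25 and 0.09 for mRpL1 and neither passed, so that 2 genes rose and 31 fell. They are those with the highest larval values of mRpS25 and mRpL1. Both calls were also lost within the higher and the lower set of arrays, with limma adjusted p of 0.126 and 0.0895 for mRpS25 and 0.138 and 0.17 for mRpL1 in that order.

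**Figure D3:**
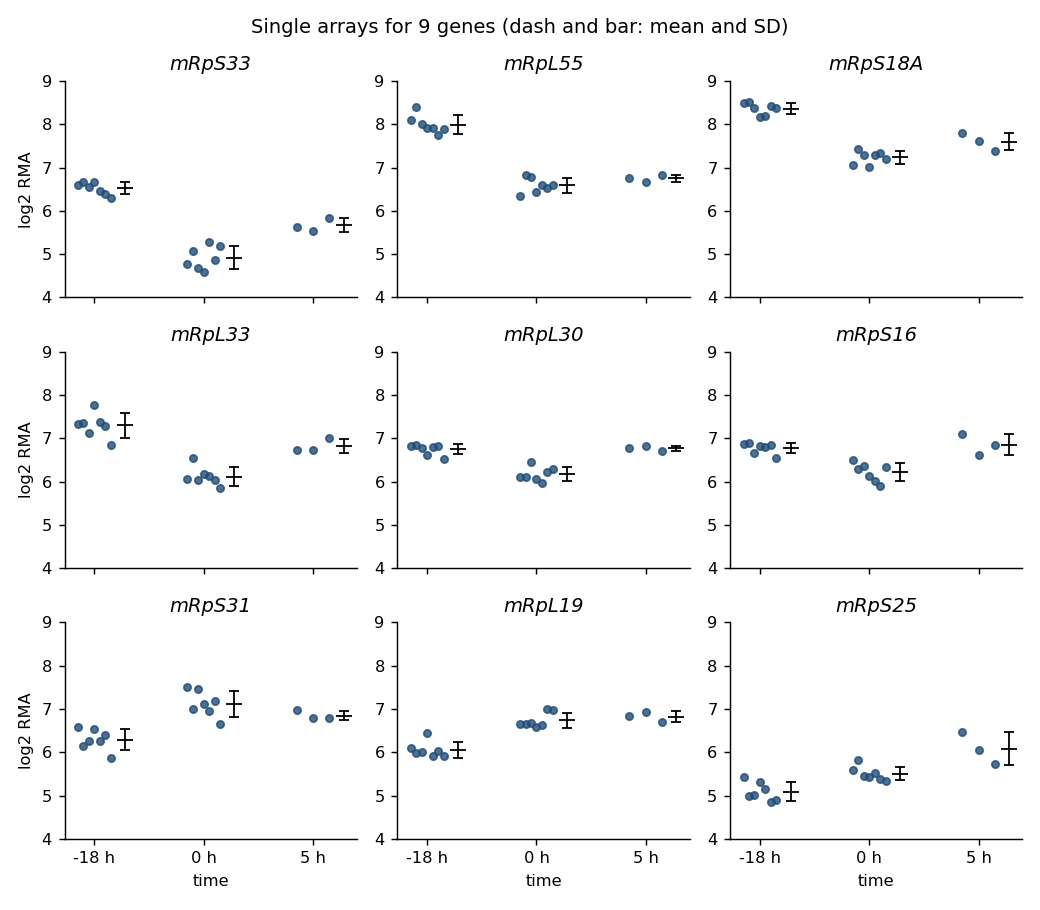
Log2 RMA values on every array (points) of 9 genes, by time relative to puparium formation, with the mean and SD (dash and bar) beside each group. mRpS33, mRpL55, mRpS18A and mRpL33 drop at 0 h, mRpL30 and mRpS16 drop at 0 h and lie at their larval level at 5 h, and mRpS31, mRpL19 and mRpS25 lie higher than in larvae.

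From 0 h to 5 h the transcripts that moved went up. At 5 h against 0 h, 8 of the 64 genes rose and 0 fell by limma, where 2.36% of all probe sets were called higher and 1.42% lower. Of all genes with a mean of at least 5 log2, 5.21% were called higher and 3.29% lower. At an unadjusted p under 0.05, 22 were higher and 1 was lower. The median change was 0.14 log2, against -0.04 over all probe sets, and 52 of the 64 estimates were positive. In 11 genes every 5 h array lay above every 0 h array, and in 1, mRpL24, below (4.05% and 4.44% of all probe sets). mRpL24 changed by -0.32 ± 0.11 log2 (SE; limma adjusted p = 0.12). Of the 8 genes, 3 belong to the small subunit and 5 to the large. Leaving out 5 h array 1 or 5 h array 2 brought the count of rises to 4 each time.

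mRpL30 and mRpS16 showed the dip at 0 h most plainly. mRpL30, the counterpart of a bacterial large subunit protein, had 6.53, 6.80 and 6.84 log2 as its lowest, median and highest larval values, 5.96, 6.11 and 6.44 at 0 h, and 6.77, 6.83 and 6.71 in the 5 h arrays. mRpS16, whose bacterial counterpart helps fold the ribosomal RNA of the small subunit, had 6.56, 6.81 and 6.88 log2 in larvae, 5.90, 6.29 and 6.50 at 0 h, and 7.09, 6.62 and 6.86 in the 5 h arrays. In both genes the 0 h arrays lay below all others, and the larval and 5 h arrays overlapped. mRpL30 changed by -0.58 ± 0.08 log2 at 0 h against -18 h and by 0.60 ± 0.10 at 5 h against 0 h (SE; limma adjusted p = 5.1e-06 and 0.000818). mRpS16 changed by -0.55 ± 0.10 and 0.63 ± 0.12 in the same comparisons (SE; limma adjusted p = 0.000108 and 0.00356), and without 5 h array 1 its rise had an adjusted p of 0.0525. Against -18 h, the 5 h changes were 0.02 ± 0.10 for mRpL30 and 0.08 ± 0.12 for mRpS16 (SE).

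mRpS33 rose by 0.75 ± 0.13 log2 at 5 h against 0 h (SE; limma adjusted p = 0.00179). mRpL52, a large subunit protein of mitochondria, had 5.81, 6.03 and 6.23 log2 as its lowest, median and highest larval values, 4.80, 5.15 and 5.65 at 0 h, and 5.91, 5.72 and 5.77 in the 5 h arrays. All its 5 h arrays lay above the 0 h arrays, and the rise was 0.58 ± 0.15 (SE; limma adjusted p = 0.0304). Without 5 h array 1, 2 or 3 the adjusted p by limma was 0.157, 0.083 or 0.105, and without 0 h array 1, 3 or 5 it was 0.0575, 0.052 or 0.0515. It was 0.141 with the replicate block and 0.0591 with only the 0 h and 5 h arrays in the fit. mRpS25 rose a second time, by 0.58 ± 0.14 (SE; limma adjusted p = 0.0245). Its 5 h arrays read 6.48, 6.06 and 5.72 and overlapped with the 0 h arrays, and without 5 h array 1 the change was 0.38 with an adjusted p of 0.254, and without 5 h array 2 it was 0.59 with 0.0901. The adjusted p was 0.0548 with the replicate block, 0.053 with the higher and lower set as blocks and 0.15 within the lower set, by limma.

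mRpL2 and mRpL39 rose after puparium formation, and their changes at 0 h against -18 h, -0.04 ± 0.08 and -0.08 ± 0.09 log2 (SE), had not passed the test. mRpL2 is the counterpart of a bacterial protein at the peptidyl transferase centre, and mRpL39 resembles threonyl-tRNA synthetases in mammals. mRpL2 had 5.28, 5.51 and 5.68 log2 as its lowest, median and highest larval values, 5.27, 5.37 and 5.55 at 0 h, and 5.88, 6.01 and 5.64 in the 5 h arrays. mRpL39 had 5.30, 5.52 and 5.74 log2 in larvae, 5.08, 5.47 and 5.76 at 0 h, and 5.74, 6.11 and 5.90 in the 5 h arrays. The 5 h arrays of mRpL2 lay above all 0 h arrays, and those of mRpL39 overlapped at the edge. The changes at 5 h against 0 h were 0.43 ± 0.10 for mRpL2 and 0.45 ± 0.12 log2 for mRpL39 (SE; limma adjusted p = 0.0205 and 0.0358). Without 5 h array 2 the genes called higher were mRpS33, mRpL33, mRpS16 and mRpL30, so both calls were lost. With the replicate block the same genes were those called higher, so both calls were lost there as well. Under the remaining alternatives these calls were not followed gene by gene.

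Set against the larva, 29 of the 64 genes were lower at 5 h and 5 were higher by limma, where 9.06% of all probe sets were called lower and 11.0% higher. Of all genes with a mean of at least 5 log2, 14.2% were called lower and 24.3% higher. This comparison shares its larval arrays with that at 0 h and its 5 h arrays with that after 0 h. The median change was -0.26 log2, against -0.07 over all probe sets. In 28 genes every 5 h array lay below every larval array, and in 3 above (10.3% and 10.0% of all probe sets). By subunit, 14 of 19 small and 15 of 45 large subunit genes were lower, with medians of -0.58 and -0.19.

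The largest falls at 5 h against -18 h were those of mRpL55 (-1.24 ± 0.12 log2), mRpL17 (-0.95 ± 0.13), mRpS33 (-0.85 ± 0.13), mRpS18C (-0.81 ± 0.12), mRpL50 (-0.79 ± 0.12) and mRpS34 (-0.79 ± 0.11; all SE). mRpL50 and mRpS34 are proteins of mitochondrial ribosomes without bacterial counterparts. mRpL50 had 6.92, 7.20 and 7.44 log2 as its lowest, median and highest larval values, 6.14, 6.35 and 6.68 at 0 h, and 6.47, 6.20 and 6.48 in the 5 h arrays, a step down with later groups overlapping. At 5 h against 0 h the change of mRpS34 was 0.00 ± 0.11 and that of mRpL50 -0.02 ± 0.12 (SE; limma adjusted p = 0.991 and 0.965). The 5 genes that were higher at 5 h were mRpS25 (0.99 ± 0.14), mRpL19 (0.77 ± 0.12), mRpS31 (0.56 ± 0.16), mRpL2 (0.39 ± 0.10) and mRpL39 (0.38 ± 0.12; all SE). mRpS25 thus reached 1.99-fold its larval level, with every 5 h array above every larval array. By limma, mRpS31 had an adjusted p of 0.0915 without 5 h array 1, mRpL2 had 0.0535 and 0.105 without 5 h array 1 or 2, and mRpL39 had 0.0555, 0.212 and 0.0793 without larval array 2, 5 h array 2 or 5 h array 3. With the replicate block, the adjusted p was 0.0952 for mRpL2 and 0.117 for mRpL39, while mRpS31 had 0.0935 and mRpL39 had 0.0885 when the higher and lower set entered as blocks, by limma. mRpL2 also had 0.0747 without larval arrays 1, 4, 6 and 7, and mRpL39 had 0.0523 with quantile normalization and 0.259 within the lower set. With larval arrays 1 and 4 alone, the adjusted p was 0.392 for mRpS31, 0.114 for mRpL2 and 0.422 for mRpL39. Without 5 h array 1 or without 5 h array 2, 3 genes were called higher, and with larval arrays 1 and 4 alone, 2 were.

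The mitochondrial ribosomal protein genes tko and bonsai carry other symbols and are set beside the 64. tko (technical knockout) encodes the counterpart of S12 at the decoding site, and fly mutants of it are known for bang sensitivity. tko had 5.91, 6.32 and 6.50 log2 as its lowest, median and highest larval values, 5.16, 5.55 and 5.85 at 0 h, and 6.09, 5.90 and 5.99 in the 5 h arrays, with the 0 h arrays below all others. It fell at 0 h with a change of -0.66 ± 0.11 log2 (SE; limma adjusted p = 9.16e-05), and at 5 h against -18 h its change was -0.23 ± 0.14 (adjusted p = 0.28). bonsai, the counterpart of S15, had 5.26, 5.66 and 5.75 log2 in larvae, 4.85, 5.31 and 5.49 at 0 h, and 5.65, 5.54 and 5.43 in the 5 h arrays. Its groups overlapped, and its change at 0 h was -0.33 ± 0.10 (SE; limma adjusted p = 0.0191). The call was lost within the higher set of arrays (-0.32, adjusted p = 0.234) and without larval arrays 1, 4, 6 and 7, where the change was -0.17 (adjusted p = 0.409).

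Brightness of a probe set depends on its own oligonucleotides, so levels are not ranked between genes. Of the 64, mRpL36, mRpS18A and mRpL16 had the brightest probe sets, with means over the 17 arrays of 7.92, 7.76 and 7.51 log2, and mRpL41, mRpL18 and mRpL32 the dimmest, with 2.93, 4.18 and 4.82. mRpL41 lay below the lower quartile of all probe sets on every array, and no other gene of the 64 did so on any array. Its called fall of -0.38 ± 0.09 log2 at 0 h (SE; limma adjusted p = 0.00288) rests on signals near background. The call was lost within the lower set of arrays (-0.32, adjusted p = 0.153) and without larval arrays 1, 4, 6 and 7 (-0.29, adjusted p = 0.0997). mRpL16 had a change of -0.18 ± 0.09 (SE; limma adjusted p = 0.193).

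Changes at 0 h were larger among the shorter of the 64 genes. Gene span, the distance from start to end of a gene in the RefSeq gene table, had a Spearman correlation of 0.54 with the change at 0 h across the 64 genes, which are not independent replicates and share the same arrays. Spans were compared among genes with a mean of at least 5 log2, 61 of the 64. Of the 12 such genes with a span of up to 700 bp, 11 fell, with a median of -0.79 log2. Of the 16 genes of 701 to 900 bp, 11 fell (median -0.46), of the 18 genes of 901 to 1200 bp, 7 fell (median -0.19), and of the 15 longer genes, 7 fell (median -0.18). Other genes showed a step in the same direction. Of these, 45.9% of 196 genes up to 700 bp fell with a median of -0.21, 49.2% of 189 genes of 701 to 900 bp with -0.25, 33.5% of 352 genes of 901 to 1200 bp with -0.10, and 15.1% of 3514 longer genes with a median of 0.08. Median spans were 921 bp for the small and 909 bp for the large subunit genes. The part of gene span in the falls was not tested.

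**Figure D4:**
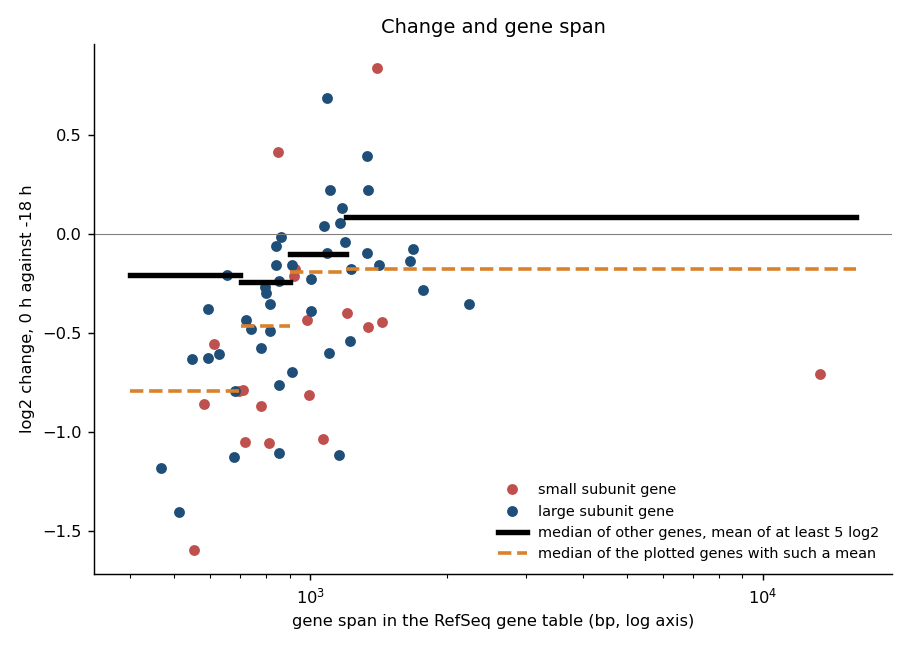
Log2 change at 0 h against -18 h of the 64 genes (points, by subunit) over gene span in bp on a log axis, with medians by span class for these genes with a mean of at least 5 log2 (dashed) and for all other genes with such a mean (solid). The dashed medians lie below the solid ones in all 4 classes, at -0.79 against -0.21 for genes up to 700 bp and -0.18 against 0.08 for genes over 1200 bp.

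Other genes of the same organelle and of the cytosolic ribosome give the setting. Of 65 nucleus-encoded respiratory chain subunits, 42 fell and 0 rose at 0 h by limma, with a median change of -0.57 log2. Among these, UQCR-6.4, a small subunit of complex III, changed by -2.67 and ND-B14.5B, of complex I, by -1.98. In the cytosolic ribosome 26 of the 37 protein genes measured fell and 0 rose, with a median of -0.47, RpL29 at -1.54 and RpL32 at -1.34. At an unadjusted p under 0.05, 0 genes of either list were higher. These shares were 64.6% for the respiratory chain list and 70.3% for the cytosolic ribosome list, beside 59.4% of mitochondrial ribosomal protein genes. Both lists were drawn by symbol and hold paralogues named as like forms. Among the paralogues are ATPsynbetaL, COX4L and ND-20L in the first list, and RpL7-like, RpL24-like and RpLP0-like in the second. How far such genes lower the shares was not tested. The mitochondrial ribosomal protein genes held 4 called rises beside these lists' 0, a difference that was not tested.

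The next lists hold genes that work with the mitochondrial ribosome or beside it. Of 23 mitochondrial tRNA synthetases, elongation factors and other translation factors, 2 fell and 1 rose at 0 h, with a median of -0.03 log2. These are 8.70% and 4.35% of the list, against 11.9% and 13.6% of all probe sets. The rise was that of mEFTs, the exchange factor of elongation factor Tu, at 0.46 (limma adjusted p = 0.000219), and the falls were those of mEFTu2 at -0.28 and AsnRS-m at -0.40. This list is dim, with a mean of 4.58 log2 at -18 h, which limits what could be detected. Of 14 factors of mitochondrial DNA, transcription and RNA, 4 fell and 2 rose (28.6% and 14.3%), with a median of 0.01. mtSSB, which binds single-stranded mitochondrial DNA, changed by -0.85 and scu, a subunit of mitochondrial RNase P, by -0.89, while mTTF, a transcription termination factor, changed by 0.66 and TFAM, which packages mitochondrial DNA, by 0.37. Of 21 import and protein quality genes, 6 fell (28.6%) and 0 rose, with a median of -0.16, Tim8 at -0.74 and the protease ClpP at -0.59, and 0 were higher at an unadjusted p under 0.05.

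At 5 h against 0 h, 15 of the 65 respiratory chain genes and 4 of the 37 cytosolic ribosomal protein genes rose and none fell in either list by limma, with medians of 0.28 and 0.16 log2 (1 gene of each list was lower at an unadjusted p under 0.05). These rises are 23.1% and 10.8% of the lists, against 2.36% of all probe sets and 5.21% of all genes with a mean of at least 5 log2. None of the 23 other mitochondrial translation genes was called in either direction at 5 h against 0 h or against -18 h by limma. At an unadjusted p under 0.05, 1 was higher and 1 lower in the first of these comparisons and 0 in the other. At 5 h against -18 h, 29 respiratory chain genes and 18 cytosolic ribosomal protein genes were lower, with medians of -0.22 and -0.33. These falls are 44.6% and 48.6% of the lists, against 9.06% of all probe sets and 14.2% of all genes with a mean of at least 5 log2.

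**Figure D5:**
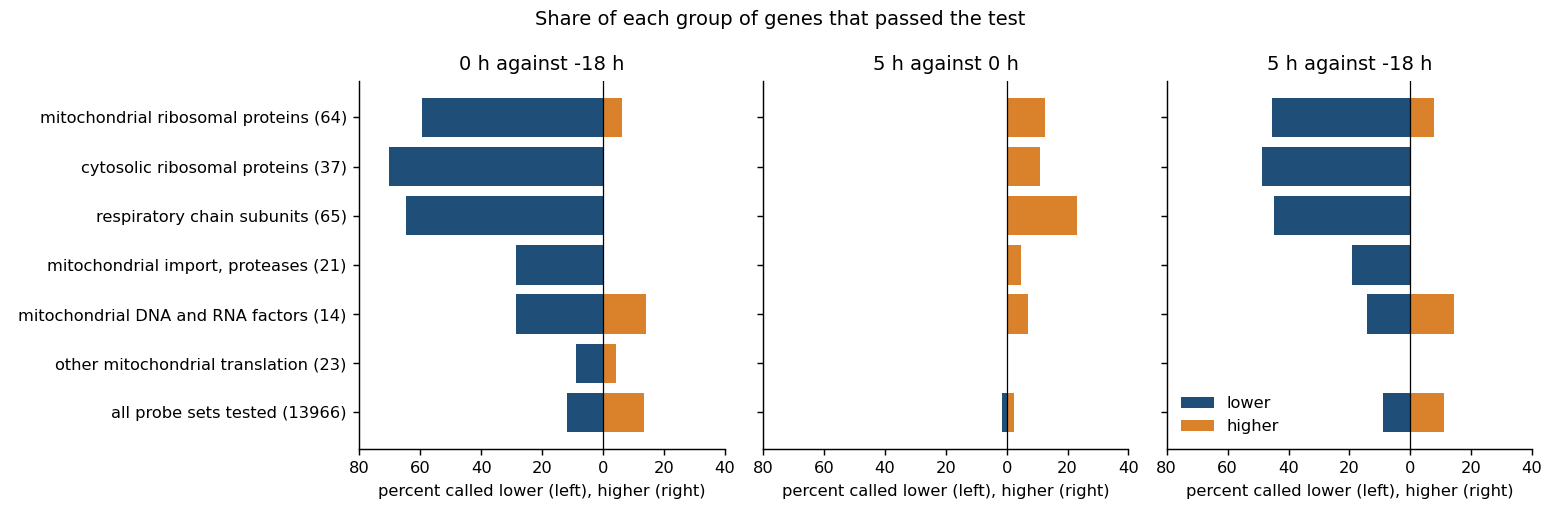
Percent of the genes of each list called lower (left of 0) and higher (right of 0) by limma in the 3 comparisons, with the number of genes in parentheses and all probe sets in the last line. At 0 h against -18 h, 59.4% of mitochondrial ribosomal protein genes were lower, against 11.9% of all probe sets, and at 5 h against 0 h 12.5% were higher, against 2.36%. Of all genes with a mean of at least 5 log2, not drawn, 20.1% were lower and 5.21% higher in these comparisons.

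Several measures of the samples moved with the groups. For the eIF4a control, the probe set at the 3-prime end exceeded the one in the middle of the transcript by 3.03 ± 0.0845 log2 in larvae (SD, n = 7), by 2.81 ± 0.202 in white prepupae (SD, n = 7) and by 2.58 ± 0.0121 in pupae (SD, n = 3), which describes how strongly signal leans to that end. The 18S control read 9.18 ± 0.128, 7.60 ± 0.354 and 7.62 ± 0.0743 log2 at the same times. Of 10 markers of neuroblasts and the cell cycle, PCNA, Mcm2 and mira fell at 0 h, and the mean of the 10 lay between 4.75 and 5.07 log2 in larvae, between 4.34 and 4.82 in white prepupae and between 4.48 and 4.56 in pupae. Of 7 glia markers, repo rose at 0 h (1.04 log2) and wrapper and Gs2 fell (-0.77 and -0.54), and the mean of the 7 lay between 5.64 and 6.07 log2 in larvae, between 5.34 and 6.02 in white prepupae and between 5.93 and 6.10 in pupae. At 5 h against -18 h, 2 of the 7 were called higher, repo among them by 0.87, and Gs2 was called lower (-0.62). At 5 h against 0 h, 2 of the 7 rose and 0 fell, wrapper by 0.77 and another by 1.09. Of 5 hemocyte markers, Col4a1 and Hml fell at 0 h (-0.41 and -0.33), and the mean of the 5 lay between 3.15 and 3.64, between 3.04 and 3.23 and between 3.11 and 3.25 log2 at the 3 times in order. prt, the mushroom body transporter given above, fell by 2.59 on the log2 scale at 0 h. Their part in the results was not tested, nor was that of fat body signal. Without larval arrays 1, 4, 6 and 7, which had the highest glue or muscle signal among larval arrays, 37 of the 64 genes fell and 5 rose at 0 h against -18 h. The larval arrays kept, 2, 3 and 5, had fat body means of 7.19, 7.67 and 8.89 log2. They were not free of muscle signal, with muscle means of 3.70, 4.15 and 4.80 log2, where 0 h arrays read 3.61 to 3.78. Within the lower set 36 genes fell and 2 rose at 0 h against -18 h, within the higher set 31 fell and 2 rose, and with the set as a block 38 fell and 4 rose.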

How the data were processed

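Messenger RNA of laser-captured mushroom body neurons was measured on 17 one-colour Affymetrix arrays, 7 at -18 h, 7 at 0 h and 3 at 5 h. Only the authors' deposited table was used, and per the submitters' processing notes, which name RMA and Affymetrix Expression Console, its values are log2 signals. RMA summarises the probes of a probe set and sets all arrays to a common distribution, so a change is relative to the other transcripts on an array. The genome build is not given in the sources used here. Of 14010 rows, 44 control probe sets were left out and 13966 were tested. The platform annotation gave 12443 of these 1 symbol, 327 several and 1196 none, and symbols were updated through the RefSeq gene table, in which 45 of the single symbols were not found. A gene was read from a probe set with its symbol alone, the one with the highest mean where it had several.

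Limma 3.58.1 in R 4.3.3 fitted the 3 groups over all probe sets and tested each pair of times, with Benjamini-Hochberg adjustment over all of them and a threshold of 0.05. Arrays carry no read depth, and their number limits the precision. The code was tested on simulated data. Named by rule were the 6 largest rises and falls per comparison among genes past the threshold, the 3 brightest and 3 dimmest, mRpL12, mRpL10, mRpS30, mRpS29, tko and bonsai, and up to 4 genes of each other list with the smallest p at 0 h. Other genes named were chosen after their values were seen. The genes and lists were chosen with earlier results of these data known. A planned search for promoter motifs was not run, since no promoter sequences were used here. Alternatives left out each array, dropped dim probe sets, and changed the centring, normalization, fit, probe set rule, arrays and blocks.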

Additional observations from a re-analysis of the deposited data

Results flagged for a closer look

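In groups of 4 to 10 arrays, a value was marked when its gap to the nearest other value was large for the range of its group. This marked 7 of 134 groups of values tested, and chance marks about 1 in 20. Larval array 1 was involved in 3 of them. mRpL10 read 6.658 log2 there, against 6.136 in the next highest larval array. mRpL32 read 4.013 there, against 4.878 in the next lowest, and mRpL54 read 5.537, against 5.701. Larval array 4 had the highest larval value of mRpL19, 6.437 against 6.097 in the next, and of mRpS17, 6.498 against 6.087. Larval array 3 had the highest of mRpL21, 5.551 against 5.350 in the next. Among the 0 h arrays, array 6 had the lowest value of mRpL42, 6.327 against 6.468 in the next. The fits without single arrays covered all probe sets, but of these genes calls were followed only for mRpL10, mRpL19 and mRpL32. Of the 3, mRpL32 alone changed its call without the marked array, passing the threshold at 0 h against -18 h.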

How the results depend on the processing

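Falls at 0 h against -18 h numbered 31 to 44 of 64 over 26 alternatives, with medians of -0.43 to -0.37 log2, and falls at 5 h against -18 h 22 to 30 over 21. Counts of rises were less steady. Rises at 0 h numbered 2 within the higher set of arrays by bacterial control signal, within the lower set and with larval arrays 1 and 4 alone (the last chosen after seeing the data), and 4 to 6 when single arrays were left out. Rises at 5 h against -18 h numbered 2 with larval arrays 1 and 4 alone and 3 to 7 without single arrays. Rises at 5 h against 0 h numbered 4 to 10 without single arrays, and 1 gene fell when the higher and lower set entered as a block. Genes that differed at any time numbered 34 to 47. Of 35 called values of named genes, 22 kept their call under every alternative and 13 lost it under at least 1. mRpL32 at 0 h turned to 0.061 (limma adjusted p = 0.89) with larval arrays 1 and 4 alone. Correlations between the deviations of same-numbered larval and 0 h arrays were -0.281 to 0.367 (median 0.00115). For differently numbered ones they were -0.382 to 0.316 (median 0.0111). The sources do not say whether replicate numbers mark shared days or animals, and these values cannot settle it. With the replicate block, 39 genes fell and 5 rose at 0 h against -18 h, 4 rose at 5 h against 0 h, and 27 were lower and 4 higher at 5 h against -18 h. Causes were not tested. Dim genes such as mRpL41 limit what small changes can show.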
